A study of Schmidtea mediterranea with 14 samples.

Results

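The mitotic kinase and cyclin B homologs described here are 8 planarian transcripts, given by the names of the human genes they match best. They are 1 PLK1 homolog, 2 AURKA homologs, 2 CDK1 homologs, 1 CCNB2 homolog, 1 CCNB1 homolog and 1 CDC20 homolog. The 8 were fixed by identifier, and they were counted in 14 RNA-seq libraries of whole, uninjured *Schmidtea mediterranea* among 28069 transcripts in all. Because each name is a best hit to a human protein, the roles given below are those of the human or other animal protein. The transcripts are dd_Smed_v6_4273_0_1 (PLK1), dd_Smed_v6_9065_0_1 and dd_Smed_v6_15869_0_1 (AURKA), dd_Smed_v6_11265_0_1 and dd_Smed_v6_14134_0_1 (CDK1), dd_Smed_v6_7837_0_1 (CCNB2), dd_Smed_v6_11487_0_1 (CCNB1) and dd_Smed_v6_10335_0_1 (CDC20).

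All animals were asexual planarians of the clonal line CIW4, given 3 meals of liver with dsRNA, followed by 7 days without food. Control animals (6 libraries) ate dsRNA of *egfp*, the gene of a jellyfish fluorescent protein. The *apob-M* and *apob-S* animals (4 libraries each) ate a mix of *apob-1* and *apob-2* dsRNA. These genes encode the planarian homologs of apolipoprotein B, the scaffold protein of lipid-carrying lipoproteins. The animals fed this mix were sorted afterwards by phenotype, so these 2 groups were not assigned at random. Mild (*apob-M*) animals had a modest or regional loss of pigment. Severe (*apob-S*) animals had lost pigment over the whole body and moved less. Each library came from a pool of 5 to 6 animals.

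In animal cells, entry into mitosis is driven by the kinase CDK1 once it is bound by a B-type cyclin. Aurora A and polo-like kinase 1 help to switch this complex on and to build the spindle, and CDC20 ends mitosis by directing the anaphase-promoting complex to destroy cyclin B. In planarians the only dividing somatic cells are the neoblasts, stem cells marked by *piwi-1* mRNA, so the level of a mitotic transcript in a whole animal depends both on how many neoblasts are dividing and on how much of the transcript each one holds. Fewer cells of a type and less RNA per cell cannot be told apart in these libraries.

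Both dsRNA targets were lower in every apob(RNAi) library than in any control library, with log2 fold changes in mild and severe animals of -2.41 and -2.29 for *apob-1* and of -1.43 and -1.67 for *apob-2*. Total counts ranged from 16839133 to 23039326 per library, and the 8 transcripts together held 1622 to 2332 counts of each. Levels are given as CPM, the count scaled to library size after TMM normalization (trimmed mean of M-values, a scaling that sets most transcripts to no change). Of the neoblast markers, *piwi-1* was at 404 ± 6.83 CPM (SD, n = 6) in control animals, 408 ± 22.3 (n = 4) in mild and 429 ± 9.21 (n = 4) in severe animals, and was not called in either (edgeR adjusted p of 0.0623 in *apob-S*), although all 4 *apob-S* libraries lay above all controls. The second neoblast marker, *tgs-1*, was higher in both, with log2 fold changes of 0.68 and 0.64. Among markers of other cells, the early epidermal progeny transcript *prog-1* (-0.22 and -0.75) and the pharynx transcript *laminin* (-0.44 and -0.97) were lower in both groups, and the neuronal transcript *ChAT* was called higher in *apob-M* (0.22) and not called in *apob-S*. Of 3 intestinal transcripts, *slc22a6* was higher (0.25 and 0.35), *npc2* was lower (-0.40 and -0.23) and *ctsla* was not called in either group. Whether shifts in cell composition have a part in the differences below was not tested.

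PLK1 and both cyclin B homologs rose in at least 1 group of apob(RNAi) animals, and the remaining transcripts did not pass the test. A transcript was called changed at an adjusted p under 0.05 in edgeR's quasi-likelihood test, with Benjamini-Hochberg adjustment over all 18436 transcripts tested. In *apob-M* animals, 2 of the 8 were higher than in control, PLK1 and CCNB2, and 0 were lower, against 15.3% of all transcripts called in either direction, 7.05% higher and 8.24% lower. In *apob-S* animals, 3 of the 8 were higher, PLK1, CCNB2 and CCNB1, and 0 were lower, against 29.3% called in either direction, 13.5% higher and 15.7% lower. Both sets of calls used the same 6 control libraries, so they are not independent of each other. With so few transcripts, neither share was read as standing apart from the background. The called rises ranged from 9.94% to 16.7%, and none passed an adjusted p threshold of 0.01.

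**Figure D1:**
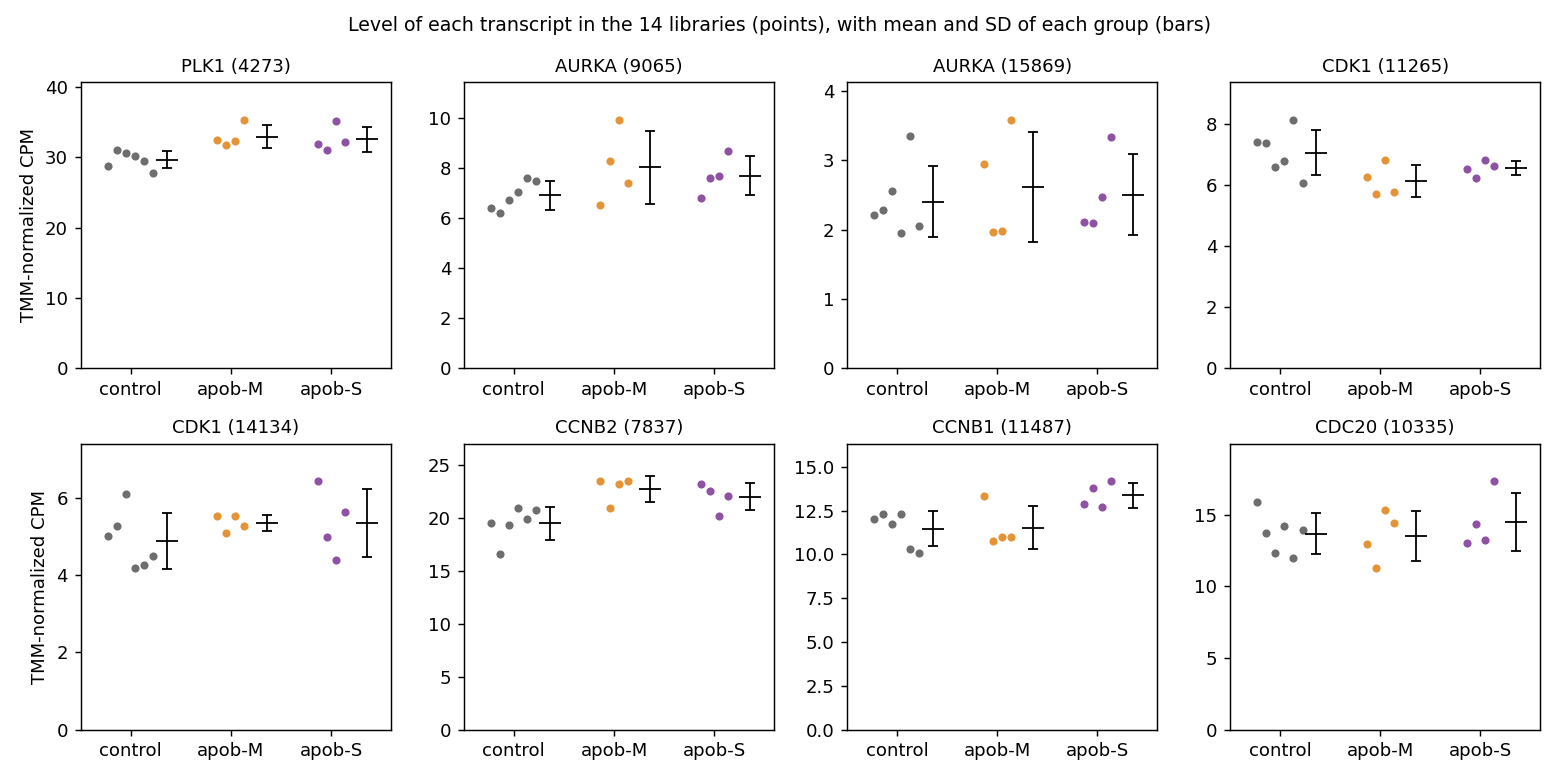
Level of each of the 8 transcripts, in TMM-normalized CPM on an axis from 0, in the 6 control, 4 *apob-M* and 4 *apob-S* libraries. Points are libraries and bars are the mean and SD of each group, and the number in a panel's title is the middle part of the identifier. All 4 *apob-M* points of PLK1 (31.7 to 35.4) and all 4 *apob-S* points of CCNB1 (12.7 to 14.2) lie above all control points, while the other panels overlap.

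The CDK1 homologs, whose protein is the kinase at the centre of mitotic entry, were not called in any comparison. Control libraries held dd_Smed_v6_11265_0_1 at 6.05 to 8.13 CPM with a median of 7.07. The 4 *apob-M* libraries held 6.26, 5.70, 6.82 and 5.75 CPM, and the 4 *apob-S* libraries 6.52, 6.24, 6.80 and 6.63. In *apob-M*, 2 of 4 libraries were below all controls, and the *apob-S* values lay within the control range. This was the only one of the 8 with a negative fold change in both groups, -0.20 (SE 0.0936, edgeR adjusted p = 0.177, unadjusted 0.0491) in *apob-M* and -0.10 (SE 0.0925, adjusted p = 0.462) in *apob-S*, and neither passed the test. The 95% intervals of the change ran from -23.9% to -0.0588% in mild animals and from -18.6% to 6.55% in severe animals.

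The other CDK1 homolog, dd_Smed_v6_14134_0_1, was at 4.17 to 6.11 CPM in control, with a median of 4.75. Its *apob-M* values were 5.52, 5.10, 5.53 and 5.28 CPM, close to each other and inside the control range. Its *apob-S* values were 6.43, 4.99, 4.38 and 5.63 CPM, with 1 library above all controls and the rest among them. Log2 fold changes were 0.13 in both groups (SE 0.125 in each, edgeR adjusted p of 0.544 in *apob-M* and 0.481 in *apob-S*). In control the 2 CDK1 homologs held similar amounts, dd_Smed_v6_11265_0_1 making up 55.7% ± 4.74 (SD, n = 6) of their summed CPM per kb, against 49.8% ± 1.32 in the 4 *apob-M* libraries and 51.7% ± 4.40 in the 4 *apob-S* libraries. All 3 ranges overlapped. A read that aligned to more than 1 transcript counted for each, so counts of the CDK1 pair, and of the AURKA pair, may include shared reads.

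Cyclin B homologs included the transcripts with the largest called changes. CCNB2, a B-type cyclin that binds and activates CDK1, stood at 16.6 to 21.0 CPM in control libraries with a median of 19.7. In *apob-M* it was at 23.4, 20.9, 23.2 and 23.5 CPM, and 3 of 4 libraries exceeded every control, the exception being replicate 2. In *apob-S* it was at 23.2, 22.5, 20.2 and 22.0 CPM, and again 3 of 4 exceeded every control, the exception being replicate 3. CCNB2 was 16.5% higher in mild animals, a log2 fold change of 0.22 (SE 0.0624) with an edgeR adjusted p of 0.0210. It was 12.7% higher in severe animals (0.17, SE 0.0625, adjusted p = 0.0452). The two-sided exact permutation test of log2 CPM gave p = 0.0190 for mild and p = 0.0286 for severe animals, where 0.00952 is the smallest that 6 against 4 libraries can give. The *apob-M* call was lost without *apob-M* replicate 1, 3 or 4 (edgeR adjusted p of 0.0622, 0.0538 and 0.0625). The *apob-S* call was lost without any 1 of control replicates 1, 2, 3 and 5, *apob-M* replicates 1 and 4 or *apob-S* replicates 1, 2 and 4, with adjusted p between 0.0512 and 0.135. With any 1 library left out, the log2 fold change of CCNB2 stayed between 0.18 and 0.26 in mild animals and between 0.13 and 0.21 in severe animals.

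CCNB1 encodes the other B-type cyclin, the main partner of CDK1 in vertebrate mitosis, and it was called higher in *apob-S* animals but not in *apob-M* animals. Control libraries ranged from 10.1 to 12.3 CPM with a median of 11.9. In *apob-M*, replicate 1 was at 13.4 CPM and the other 3 at 10.8, 11.02 and 10.98, inside the control range. In *apob-S*, values were 12.9, 13.8, 12.7 and 14.2 CPM, and every library was above every control. The rise in *apob-S* was 16.7% (log2 fold change 0.22, SE 0.0790, edgeR adjusted p = 0.0397, exact permutation p = 0.00952), whereas the log2 fold change in *apob-M* was 0.01 (SE 0.0805, adjusted p = 0.960). The difference between the 2 knockdown groups was 0.21 on the log2 scale (SE 0.0868) and did not pass the test (edgeR adjusted p = 0.128, unadjusted 0.0239, exact permutation p = 0.0857), so a difference in the response of CCNB1 between mild and severe animals was not shown. Without *apob-M* replicate 1 that difference was 0.29, with an adjusted p of 0.0338. The call in *apob-S* was lost without control replicate 5 or 6 (adjusted p of 0.0815 and 0.0873) and without *apob-S* replicate 2 or 4 (0.0842 and 0.110), while its log2 fold change with any 1 library left out stayed between 0.19 and 0.25.

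The ratio of the cyclin B to the CDK1 homologs was compared without a test. Summed per length, cyclin B was 2.06 ± 0.225 times CDK1 in control (SD, n = 6), 2.31 ± 0.134 in mild animals and 2.34 ± 0.156 in severe animals (n = 4 each). Ratios in the libraries ran from 1.83 to 2.40 in control, 2.14 to 2.44 in *apob-M* and 2.16 to 2.54 in *apob-S*, so all groups overlapped. CCNB2 made up 56.3% ± 3.63 of the cyclin B total in control, 60.0% ± 2.19 in mild and 55.4% ± 1.62 in severe animals.

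PLK1, the polo-like kinase that acts in mitotic entry, spindle assembly and cytokinesis, was the most abundant of the 8 and rose in both groups. Control libraries held 27.8 to 31.1 CPM with a median of 29.8. The *apob-M* libraries held 32.4, 31.7, 32.3 and 35.4 CPM, all above every control with TMM scaling. The *apob-S* libraries held 31.8, 31.0, 35.2 and 32.2 CPM, of which replicate 2 fell just under the highest control and the other 3 lay above all controls. The rise was 11.1% in mild animals (a log2 change of 0.15, SE 0.0460, edgeR adjusted p = 0.0305, exact permutation p = 0.00952) and 9.94% in severe animals (0.14, SE 0.0460, adjusted p = 0.0309, exact permutation p = 0.0190). In *apob-M* the call was lost without control replicate 1, 5 or 6 (edgeR adjusted p of 0.0523, 0.0532 and 0.0657) or *apob-M* replicate 1 or 4 (0.0557 and 0.126). In *apob-S* it was lost without control replicate 1 or 6 (0.0566 and 0.0694) or *apob-S* replicate 3 or 4 (0.151 and 0.0502). The log2 fold change with any 1 library left out stayed between 0.12 and 0.17 in mild animals and between 0.10 and 0.17 in severe animals. Among all transcripts, 12.5% had no overlap between *apob-M* and control libraries and 22.1% had none between *apob-S* and control, against 1 of 8 members in each comparison.

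The AURKA homologs, whose protein matures centrosomes and activates PLK1, were not called. For dd_Smed_v6_9065_0_1, control libraries spanned 6.20 to 7.61 CPM with a median of 6.88. Its *apob-M* values spread from 6.52 in replicate 1 through 7.39 and 8.27 to 9.93 in replicate 3, and its *apob-S* values were 6.79, 7.58, 7.69 and 8.68. In each group 2 of 4 libraries were above all controls. Its log2 fold changes were 0.22 (SE 0.109, edgeR adjusted p = 0.200) in *apob-M*, close to that of CCNB2 but with a larger error, and 0.15 (SE 0.109, adjusted p = 0.359) in *apob-S*. The *apob-M* libraries of this transcript varied more than counting alone gives, with a coefficient of variation of 18.1% against 7.89% from counting error.

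The second AURKA homolog, dd_Smed_v6_15869_0_1, was the least abundant of the 8, with 36 to 68 counts per library. Control libraries ranged from 1.95 to 3.36 CPM with a median of 2.25. Mild animals held 2.95, 1.96, 1.98 and 3.59 CPM, and severe animals 2.12, 2.10, 2.47 and 3.34. The groups overlapped almost entirely, and the log2 fold changes of 0.12 and 0.05 had standard errors of 0.205 and 0.206 (edgeR adjusted p of 0.767 and 0.897). The 95% intervals ran from -19.5% to 46.0% in mild animals and from -23.4% to 39.5% in severe animals. The spread between libraries was wider than counting error in every group, with coefficients of variation of 21.3%, 30.3% and 23.3% in control, mild and severe animals against 14.4%, 13.9% and 14.1% from counting alone.

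CDC20, the activator of the anaphase-promoting complex that ends mitosis, showed no called difference. It was at 12.01 to 15.9 CPM in control libraries, with a median of 13.8. The *apob-M* values were 13.0, 11.3, 15.3 and 14.5 CPM, of which replicate 2 was below all controls. The *apob-S* values were 13.0, 14.4, 13.2 and 17.4 CPM, of which replicate 4 was above all controls. Log2 fold changes were -0.02 (SE 0.0996, edgeR adjusted p = 0.926) in *apob-M* and 0.07 (SE 0.0987, adjusted p = 0.634) in *apob-S*, with 95% intervals of the change from -14.7% to 13.95% and from -8.77% to 21.6%.

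**Figure D2:**
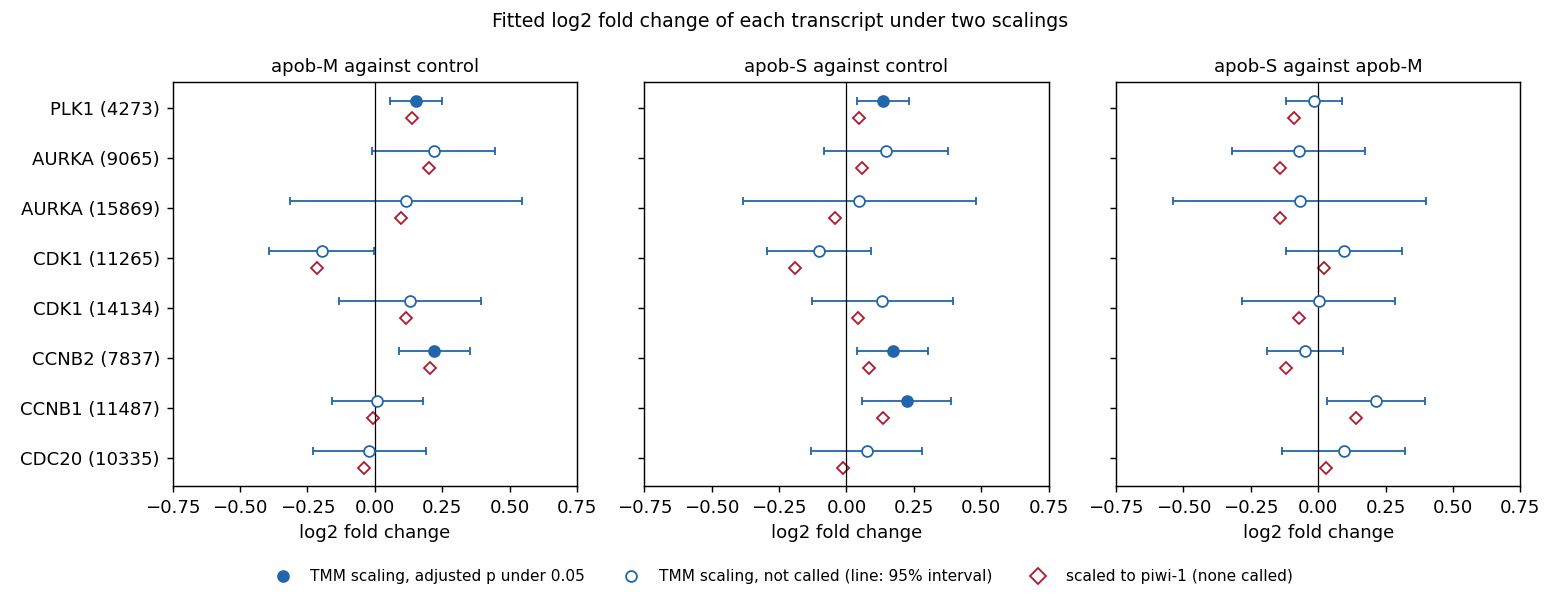
Log2 fold change of each of the 8 transcripts (x axis) in each of the 3 comparisons. Circles with 95% intervals are fitted with TMM scaling and are filled where the adjusted p was under 0.05, and diamonds are fitted with libraries scaled to *piwi-1*. The filled circles lie between 0.14 and 0.22, and the diamonds lie to the left of the circles, further so in *apob-S* than in *apob-M* against control.

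No transcript of the 8 was called between severe and mild animals. In *apob-S* against *apob-M*, 0 of the 8 were called by edgeR's quasi-likelihood test, and edgeR's exact test, DESeq2 and limma-voom also called 0, against 12% of all transcripts called in this comparison. One transcript, CCNB1, had an unadjusted p under 0.05, against 24.3% of all transcripts. Log2 differences ran from -0.07, for both AURKA homologs, to 0.21, for CCNB1. The 95% interval was narrowest for PLK1, from -8.04% to 6.42%, and widest for AURKA dd_Smed_v6_15869_0_1, from -31.1% to 32.0%.

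Across the 8, the median log2 fold change was 0.12 in mild animals and 0.14 in severe animals, whereas the median of all transcripts tested was -0.0025 and -0.0027. With *piwi-1* scaling the members' median was 0.11 in mild animals and 0.05 in severe animals. The median of all transcripts tested was then -0.02 and -0.09, so this scaling lowered all transcripts and not the members alone. In *apob-M*, 6 of 8 fold changes were positive and in *apob-S* 7 of 8. Summed over the 8 transcripts, the level per length was 60.2 ± 1.10 CPM per kb in control (SD, n = 6), 64.6 ± 3.07 in mild animals and 65.8 ± 2.73 in severe animals (n = 4 each). The lowest of the *apob-S* sums, 64.3, was above the highest control sum of 61.2, and the *apob-M* sums reached from 60.2 to 67.1. The separation of *apob-S* depended on TMM scaling. Without TMM factors, and not per length, the summed CPM of *apob-S* replicate 2 was 95.7, inside the control range of 92.8 to 98.3. The other *apob-S* libraries, at 101.8 to 111.5, stayed above that range. Whether sums over other sets of transcripts separate as often was not tested. The *apob-M* spread followed single libraries, since replicate 2 was the lowest of its group for 7 of the 8 transcripts and replicate 3 the highest for 4. In *apob-S*, replicate 4 was the highest for 4 of 8. The libraries *apob-M* replicate 3 and *apob-S* replicate 2 had TMM factors of 0.919 and 0.935, the only ones under 0.95, and held 7.28% and 5.36% of their counts on 1 transcript, dd_Smed_v6_4_1_1. With both left out, 0 of the 8 were called in mild animals and 1 in severe animals. Calls over all 18344 transcripts tested in that fit fell too, to 946 higher and 1095 lower in mild animals. Severe animals then had 2271 higher and 2617 lower. With all libraries these numbers were 1299 and 1520 in mild animals, and 2496 and 2902 in severe animals.

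The calls depended on the scaling and on the test. With libraries scaled so that *piwi-1* had the same level in each, which sets mitotic transcripts against the neoblast marker, 0 of the 8 were called in any comparison by edgeR's quasi-likelihood test, against 11% of all transcripts in mild animals, 29.2% in severe animals and 12.9% between the 2 knockdown groups. At an unadjusted p under 0.05 there were 3 of the 8, 0 and 0, against 24.1%, 38.3% and 25.6%. No other tool was run with this scaling. The 3 called transcripts kept a positive sign, PLK1 at 0.14 in *apob-M* and 0.05 in *apob-S* (adjusted p of 0.0926 and 0.539), CCNB2 at 0.20 and 0.08 (0.0597 and 0.400) and CCNB1 in *apob-S* at 0.14 (0.252). With this scaling the median log2 fold change of all transcripts was -0.09 in *apob-S*, where 22.2% of its calls were higher, against 46.2% with TMM. Between severe and mild animals these shares were 20.5% and 43%. With library size alone, 0 of the 8 were called in either group against control. Of all 18436 transcripts, 864 were then higher and 931 lower in *apob-M*, and 1773 higher and 2580 lower in *apob-S*. With edgeR's exact test, 1 of 8 was called in each group, CCNB2 in *apob-M* and CCNB1 in *apob-S*. Of all 18436 transcripts this test called 994 higher and 1290 lower in *apob-M*, and 2177 higher and 2720 lower in *apob-S*.

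Other homologs of mitosis and cytokinesis did not move together. Of 25 listed, 23 were tested, among them subunits of the anaphase-promoting complex, kinesins, kinetochore proteins and the separase homolog. In *apob-M*, 0 were higher and 1 was lower (4.35%), against 15.3% of all transcripts called, and the median log2 fold change was -0.05. At unadjusted p under 0.05 there were 3, against 5143 of all 18436 transcripts. By edgeR's exact test, DESeq2 and limma-voom, 0 were higher and 1 was lower. The one called was an AURKC homolog, dd_Smed_v6_10323_0_1, an Aurora kinase of the chromosomal passenger complex, which fell from 22.5 ± 1.42 CPM in control to 18.8 ± 2.03 (log2 fold change -0.26, SE 0.0671, edgeR adjusted p = 0.0116). Without *apob-M* replicate 3 its adjusted p was 0.0553.

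In *apob-S*, 3 of the 23 were higher and 1 was lower (17.4%), against 29.3% of all transcripts called, with a median of 0.02. With *piwi-1* scaling 0 were higher and 2 lower, against 29.2% of all transcripts called. At an unadjusted p under 0.05 there were 6 in either direction, against 38.3%. The list's median was then -0.07, where this scaling took the median of all transcripts from -0.0027 to -0.09. Of all calls with this scaling 22.2% were higher, so lower calls prevailed among all transcripts too. The 3 higher calls were then lost (edgeR adjusted p of 0.114 for CKS2, 0.199 for KIF20B and 0.131 for MASTL), and AURKC dd_Smed_v6_10323_0_1 was called lower beside NDC80 (-0.22, adjusted p = 0.0270). The CKS2 homolog dd_Smed_v6_6668_0_1, a small protein that binds CDK1, rose from 5.19 ± 0.681 to 6.60 ± 0.912 CPM (0.35, SE 0.122, edgeR adjusted p = 0.0374). The kinesin homolog KIF20B (dd_Smed_v6_13972_0_1), which acts in cytokinesis, rose from 6.88 ± 0.847 to 8.48 ± 1.23 CPM (0.29, SE 0.105, adjusted p = 0.0437). MASTL (dd_Smed_v6_18303_0_1), the Greatwall kinase that shields CDK1 substrates from dephosphorylation, rose from 2.74 ± 0.510 to 3.68 ± 0.665 CPM (0.43, SE 0.155, adjusted p = 0.0445). The homolog of the kinetochore protein NDC80 (dd_Smed_v6_14673_0_1) moved the other way, from 4.12 ± 0.647 to 2.89 ± 0.552 CPM (-0.52, SE 0.153, adjusted p = 0.0149). All 4 overlapped with the control libraries. Over the 14 fits with 1 library left out, these 4 were called in 7, 8, 5 and 13.

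In *apob-S* against *apob-M*, 2 of the 23 were higher and 0 lower (8.7%), against 12% of all transcripts called. CKS2 was at 4.91 ± 0.736 CPM in *apob-M*, below its level in *apob-S* by a log2 difference of 0.43 (SE 0.135, edgeR adjusted p = 0.0475). The WEE2 homolog dd_Smed_v6_17244_0_1, which belongs to a kinase family that inhibits CDK1, was at 2.31 ± 0.353 CPM in mild animals and 3.38 ± 0.866 in severe animals (0.57, SE 0.182, adjusted p = 0.0497). Each was called in 3 of the 14 fits with 1 library left out. A further CDK1 homolog (dd_Smed_v6_31502_0_1, 8 to 25 counts per library) and a further PLK1 homolog (dd_Smed_v6_35990_0_1, 7 to 15 counts) did not reach the filter on low counts and were not tested.

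DNA replication homologs act before mitosis, when the genome is copied. Of 20 tested, 4 were higher and 0 lower in *apob-M* (20%), against 15.3% of all transcripts called, and the median log2 fold change was 0.08. At unadjusted p under 0.05 there were 7, and edgeR's exact test, DESeq2 and limma-voom called 0 lower. In *apob-S* 8 were higher and 1 was lower (45%), against 29.3% of all transcripts called. The median was 0.24, beside 0.14 for the 8 mitotic transcripts, and the difference between the lists was not tested. Whether the shares called differ from those of all transcripts was not tested either. The homolog of the helicase subunit MCM7 (dd_Smed_v6_4712_0_1) was at 43.6 ± 1.08 CPM in control, 50.0 ± 3.76 in mild and 57.2 ± 3.51 in severe animals, with all *apob-S* libraries above all controls. The one that was lower, RFC5 (dd_Smed_v6_5504_0_1), a clamp loader subunit, had a log2 fold change of -0.15 and was not called by any of the 3 other tools. With *piwi-1* scaling, 6 replication homologs were higher in *apob-S* and 2 in *apob-M*. Of all 18436 transcripts, 1195 were then higher and 4191 lower in *apob-S*, and 787 higher and 1240 lower in *apob-M*. RFC5 was again the only one called lower, in *apob-S* (-0.24, edgeR adjusted p = 0.0046). Of 2 regulators of the step into DNA synthesis that were tested, the CCND2 and CDK4 homologs, 0 were called by edgeR's quasi-likelihood test in any comparison, with 0 at an unadjusted p under 0.05 and 0 by the 3 other tools.

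**Figure D3:**
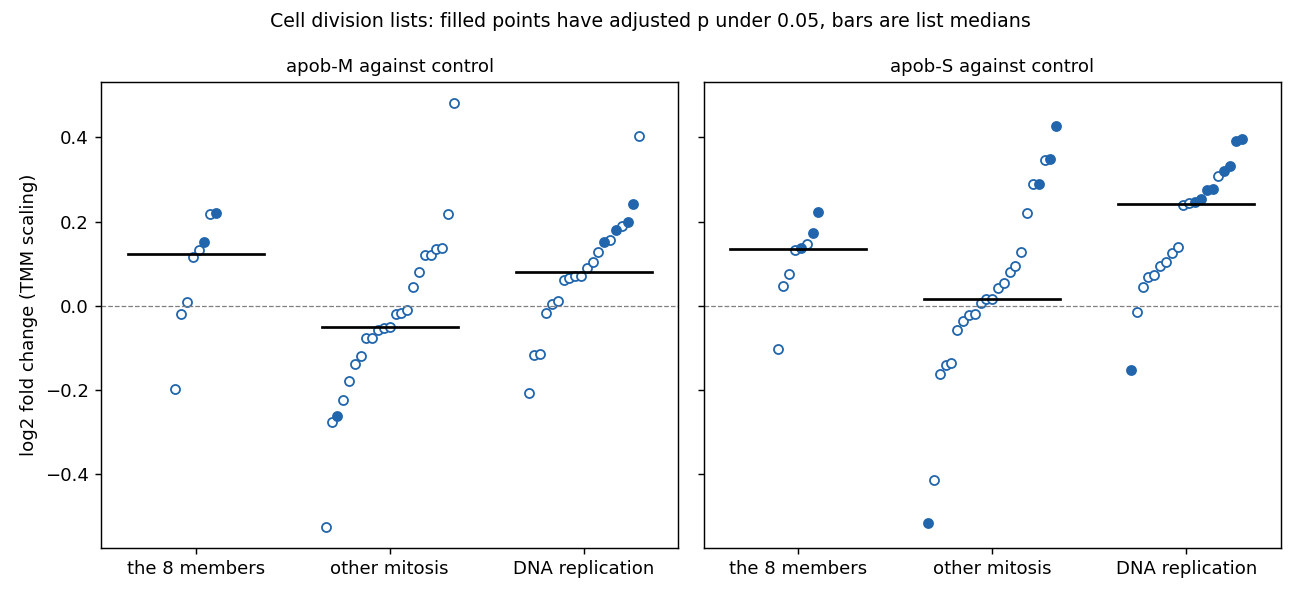
Log2 fold change against control, with TMM scaling (y axis), of the 8 mitotic kinase, cyclin B and CDC20 homologs, 23 other mitosis homologs and 20 DNA replication homologs in *apob-M* (left) and *apob-S* (right). Points are transcripts, filled where the adjusted p was under 0.05, and bars are medians, at 0.12, -0.05 and 0.08 in *apob-M* and 0.14, 0.02 and 0.24 in *apob-S*.

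Compared per length, in CPM per kb of transcript, the order of levels was nearly the same in all groups. In control it ran from PLK1 (15.3 ± 0.626) through CCNB2 (10.6 ± 0.846), CDC20 (8.40 ± 0.861), CCNB1 (8.21 ± 0.719), AURKA dd_Smed_v6_9065_0_1 (6.46 ± 0.533), CDK1 dd_Smed_v6_11265_0_1 (5.11 ± 0.533) and CDK1 dd_Smed_v6_14134_0_1 (4.08 ± 0.614) to AURKA dd_Smed_v6_15869_0_1 (2.04 ± 0.434, SD, n = 6 for each). PLK1 stood above CCNB2 in every library, with a control range of 14.4 to 16.1 against 8.997 to 11.4. Ranges of CCNB2 and CDC20, of CDC20 and CCNB1, of the larger AURKA and the larger CDK1 homolog, and of the 2 CDK1 homologs overlapped in control, so these neighbours were not separated by the spread between libraries. In *apob-M* the CDK1 homologs changed places at 4.47 ± 0.176 and 4.44 ± 0.377, and in *apob-S* CCNB1 (9.58 ± 0.507) preceded CDC20 (8.89 ± 1.23), in both cases with overlapping ranges.

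**Figure D4:**
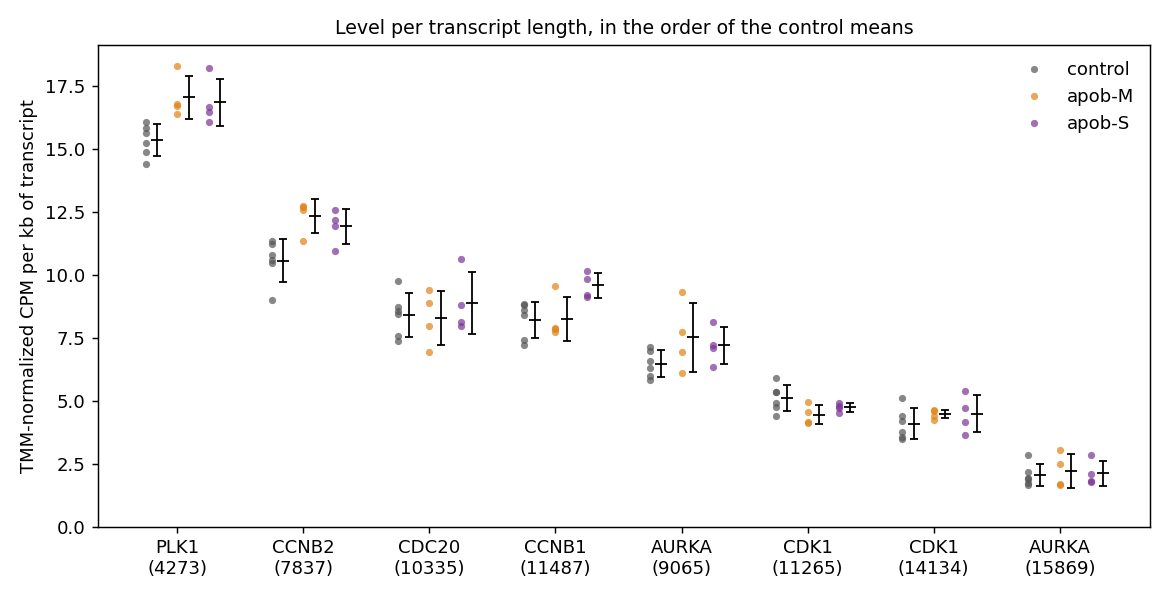
Level per transcript length, in TMM-normalized CPM per kb on an axis from 0, of the 8 transcripts in the order of their control means. Points are libraries, coloured by group, and bars are the mean and SD. PLK1 is highest and AURKA dd_Smed_v6_15869_0_1 lowest in all 3 groups, and the 2 CDK1 homologs overlap in each.

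The 8 transcripts did not vary as 1 unit across the 14 libraries. Pearson's r of each with the mean of the other 7, on standardized log2 CPM, ranged from -0.29 for CDK1 dd_Smed_v6_11265_0_1 to 0.40 for PLK1. These values are descriptions over libraries that share group differences and scaling. Among 1729 transcripts with a human best hit at hand, the profiles most like the mean of the 8 were those of the homologs of GSPT1 (r = 0.91, a translation release factor, dd_Smed_v6_1469_0_1), MCM7 (0.87), the histone-binding protein RBBP4 (0.87, dd_Smed_v6_2065_0_1), the tetraspanin TSPAN3 (0.87, dd_Smed_v6_1378_0_1) and the nuclear import receptor KPNB1 (0.86, dd_Smed_v6_3466_0_1), in that order. Among all 13389 transcripts compared they ranked 1, 10, 11, 13 and 19, and those ranked between them had no best hit at hand.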

How the data were processed

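RNA from 14 pools of whole planarians was sequenced as paired reads. The authors checked reads with FastQC 0.11.5, trimmed them with BBDuk, aligned them with Bowtie2 2.3.1 to the unique transcripts of dd_Smed_v6, keeping multiple alignments, and counted them with featureCounts (Subread 1.6.3), including multi-mapping reads. The counts per transcript were deposited without normalization and are the values used here. The authors' other deposited table, of fold changes, log CPM and false discovery rates from their own comparisons, was not used.

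Transcripts reaching 1 CPM in 4 or more libraries (18436 of 28069) were tested with edgeR 4.0.16 in R 4.3.3 (TMM, quasi-likelihood test, all libraries in 1 fit, Benjamini-Hochberg at 0.05). Single transcripts were also tested by a two-sided exact permutation test of log2 CPM with a prior count of 2. For the second scaling, library sizes were set so that *piwi-1* was level. Alternatives were other tests (edgeR's exact test, limma-voom in limma 3.58.1 and DESeq2 1.42.0), other scalings (DESeq2 size factors, library size), other filters (none, 5 CPM), fits of 2 groups, replicate number as a blocking factor, a threshold of 0.01, a prior count of 0.5 and leaving out each library. Scripts were tested on simulated counts.

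The members, lists, tests and alternatives were chosen with earlier results of these data known. Named were all 8 members, cell markers and dsRNA targets, the called transcripts of the other mitosis list, and the 5 transcripts with the most similar profile (mean log2 CPM of at least 2). MCM7 and RFC5 were named after their values were seen. Human best hits were at hand for 1993 transcripts. No sequences were used. Per the labels, replicates are biological, and precision at low counts is limited by counting error.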

Additional observations from a re-analysis of the deposited data

Results flagged for a closer look

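Of 24 sets of member values, 1 for each transcript in each group, 2 held a library set apart from the rest by Dixon's test at 95%, and chance flags about 1 in 20. The CCNB2 homolog dd_Smed_v6_7837_0_1 was at 20.9 CPM in *apob-M* replicate 2, with the nearest other library at 23.2. The CCNB1 homolog dd_Smed_v6_11487_0_1 was at 13.4 CPM in *apob-M* replicate 1, with the nearest at 11.02. Without replicate 2 the log2 fold change of CCNB2 in *apob-M* was 0.26, and without replicate 1 that of CCNB1 was -0.07, which is not called.

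For 2 homologs of the wider mitosis list, severe and mild animals differed by edgeR's quasi-likelihood test, each in 3 of the 14 fits with 1 library left out. The log2 difference, severe minus mild, was 0.43 for CKS2 (dd_Smed_v6_6668_0_1) and 0.57 for WEE2 (dd_Smed_v6_17244_0_1). Scaled to *piwi-1*, they were 0.35 and 0.49, with adjusted p of 0.0890 and 0.0902. In this comparison edgeR's exact test and DESeq2 each called 2 of the 23 tested transcripts of that list higher. Limma-voom called CKS2 (adjusted p = 0.0435) and not WEE2 (0.0523). Against control, WEE2 (2.80 CPM in control) was called in neither group (edgeR adjusted p of 0.317 in mild and 0.203 in severe animals), and CKS2 was not called in mild animals (0.756).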

How the results depend on the processing

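All called rises of PLK1, CCNB2 and CCNB1 kept their sign under every alternative, but their calls lie close to the threshold. In *apob-M* and *apob-S* against control, 2 and 3 of the 8 transcripts were called, and the numbers were 2 and 3 with DESeq2, DESeq2 size factors or a filter at 5 CPM, and 2 and 2 with limma-voom or 2 groups alone. They were 1 and 1 with edgeR's exact test or no filter, and 0 and 0 with library size alone, *piwi-1* scaling or a threshold of 0.01. Higher calls over all transcripts moved too, from 1299 and 2496 in the main test to 994 and 2177 with edgeR's exact test. They were 864 and 1773 with library size alone, 787 and 1195 with *piwi-1* scaling and 697 and 1683 at the threshold of 0.01. DESeq2 gave 1415 and 2538, DESeq2 size factors 1355 and 2586, limma-voom 1319 and 2527, and 2 groups alone 1359 and 2451. A filter at 5 CPM gave 1344 and 2470 of 13016 tested, and no filter 1118 and 2374 of 27923. Leaving out each library gave 0 to 2 of the 8 transcripts called in *apob-M*, 0 to 3 in *apob-S* and 0 to 1 between them. Higher calls over all transcripts then ran from 1052 to 1364 in *apob-M* and from 2160 to 2615 in *apob-S*. As alternatives chosen after seeing the data, leaving out *apob-M* replicate 3 and *apob-S* replicate 2 together gave 0 and 1, and leaving out control replicates 5 and 6 gave 1 and 1. With the replicate number as a block, over replicates 1 to 4, the numbers of the 8 called were also 1 and 1, and 0 between *apob-S* and *apob-M*. Over all transcripts the block gave 956 and 2146 higher against control, and 903 higher and 1217 lower between *apob-S* and *apob-M*. Deviations of libraries with the same number correlated between -0.198 and 0.125. These values show no pairing by number but cannot exclude it, and no more is read from the block. The control libraries were not all alike, by chi-square per degree of freedom over the tested transcripts. It was 27.5 to 44.1 between replicates 1 or 2 and replicates 3 to 6, against 7.04 between 1 and 2 and 2.95 to 8.96 within 3 to 6. The knockdown groups held larger values, 104.2 to 138.9 between *apob-M* replicate 3 and the rest of its group. Between *apob-S* replicate 2 and the rest of its group it was 52.9 to 83.4. Other pairs were at 6.52 to 10.9 in *apob-M* and 10.6 to 19.5 in *apob-S*. The cause was not tested. A prior count of 0.5 left the number of the 8 with an exact permutation p under 0.05 at 2, 3 and 0. This test was run on the listed transcripts only, so the share of all transcripts that would pass is not known.

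Values near 0 changed sign, none of them called. In *apob-M* against control, CCNB1 was -0.0063 with *piwi-1* scaling, -0.071 with the block and -0.070 without control replicates 5 and 6. With single libraries left out it ranged from -0.067 to 0.040, CDC20 from -0.082 to 0.058 and AURKA dd_Smed_v6_15869_0_1 from -0.072 to 0.23. In *apob-S*, *piwi-1* scaling gave -0.041 for this AURKA homolog and -0.012 for CDC20, and leaving out single libraries gave -0.11 to 0.16 and -0.018 to 0.13. In severe against mild animals, CDK1 dd_Smed_v6_14134_0_1 was -0.011 with limma-voom, -0.013 with library size alone, -0.071 with *piwi-1* scaling and -0.0031 with the block, and AURKA dd_Smed_v6_9065_0_1 was 0.052 without the libraries of low TMM factor. Leaving out single libraries gave -0.10 to 0.092 for that CDK1 homolog, -0.157 to 0.049 for AURKA dd_Smed_v6_9065_0_1, -0.22 to 0.12 for AURKA dd_Smed_v6_15869_0_1 and -0.054 to 0.020 for PLK1. The cause of these changes was not tested. Depth was lowest for AURKA dd_Smed_v6_15869_0_1, at 36 to 68 counts per library.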
